A study of Homo sapiens with 36 samples.

Results

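The genes described here are 6 of the CXC chemokines that attract neutrophils, CXCL1, CXCL2, CXCL3, CXCL5, CXCL6 and CXCL8. They were chosen by name, and all 6 were found among the 63677 Ensembl genes listed in each count table. RNA was sequenced from A549 cells, an established human lung adenocarcinoma line obtained from ATCC, which were cultured in RPMI medium with 10% FBS and split every 3 to 4 days. Treated cells received IL-1β at 1 ng/ml and were collected at days 6, 15 and 21 of exposure, or were exposed for 21 days and then collected 6, 15 and 30 days after withdrawal of IL-1β. Untreated control cells were collected at each of these 6 time points, which gave 12 groups of 3 libraries, called biological replicates in the labels. No source used here names separate cultures behind the replicate numbers, so the p-values measure the spread between these libraries only. The cells are 1 cancer line in culture, with no neutrophils, fibroblasts or vessels beside them, and chemokine protein was not measured.

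Neutrophil-attracting CXC chemokines are small secreted proteins that carry a Glu-Leu-Arg motif before their first cysteines and act through the receptors CXCR1 and CXCR2. Neutrophils carry these receptors and move along gradients of the ligands into inflamed tissue. IL-1β binds its receptor, and the adaptor MYD88 with IRAK and TRAF6 passes the signal to NF-κB, a family of transcription factors held back by IκB proteins. Promoters of these chemokines are known targets of NF-κB. Their mRNAs are short-lived because of AU-rich elements, which proteins such as ZFP36 bind, while the RNase ZC3H12A also cleaves inflammatory mRNAs.

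All 6 genes lie on chromosome 4 of GRCh37, within 359 kb (chr4:74606236-74964913). From the lowest coordinate up they are CXCL8 (ENSG00000169429, chr4:74606236-74609433), CXCL6 (ENSG00000124875, chr4:74702357-74714781) and CXCL1 (ENSG00000163739, chr4:74735110-74737025), all on the plus strand. CXCL5 (ENSG00000163735, chr4:74861359-74864394), CXCL3 (ENSG00000163734, chr4:74902306-74904524) and CXCL2 (ENSG00000081041, chr4:74962757-74964913) follow on the minus strand. The 100 bases before each RefSeq transcription start are shown because they hold the features that the 6 genes share. For CXCL2, CXCL3, CXCL6 and CXCL8 this start lies within the gene limits given above. Their windows therefore fall wholly (CXCL3) or partly inside those limits. Sequences were taken from RefSeq (GRCh38.p14), and each matched GRCh37 chromosome 4 exactly once, at chr4:74735010-74735109 (plus) for CXCL1, chr4:74964913-74965012 (minus) for CXCL2, chr4:74904407-74904506 (minus) for CXCL3, chr4:74864395-74864494 (minus) for CXCL5, chr4:74702295-74702394 (plus) for CXCL6 and chr4:74606186-74606285 (plus) for CXCL8. They are written 5′ to 3′, and the capitals mark GGAATTTCC, the longest run of bases present in all 6 windows.
CXCL1: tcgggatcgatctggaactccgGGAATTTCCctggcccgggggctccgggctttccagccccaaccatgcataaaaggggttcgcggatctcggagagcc
CXCL2: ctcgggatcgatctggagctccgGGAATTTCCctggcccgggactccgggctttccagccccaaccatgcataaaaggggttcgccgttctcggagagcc
CXCL3: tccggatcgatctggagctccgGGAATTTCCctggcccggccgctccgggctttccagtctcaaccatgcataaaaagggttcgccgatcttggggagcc
CXCL5: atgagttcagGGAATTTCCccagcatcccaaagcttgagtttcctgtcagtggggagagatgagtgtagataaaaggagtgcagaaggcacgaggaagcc
CXCL6: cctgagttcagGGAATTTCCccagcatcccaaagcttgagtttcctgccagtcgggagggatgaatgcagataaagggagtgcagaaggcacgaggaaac
CXCL8: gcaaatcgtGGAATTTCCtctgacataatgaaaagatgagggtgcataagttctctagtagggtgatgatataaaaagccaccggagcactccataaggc

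The shared 9 bases have the form of an NF-κB site and began between 77 and 91 bases before the start in the 6 genes. Among 34796 RefSeq promoters of 300 bases (250 before and 50 after the start), 161 (0.463%) held GGAATTTCC on either strand. The general κB consensus, which overlaps these bases, was found in 5 of the 6 members and in 11.3% of all promoters, and CXCL8 was the member without it. The AP-1 motif TGANTCA was found in CXCL8 alone among the members, 137 bases before its start, and in 7.72% of all promoters. ATAAA lay 30 or 31 bases before the start in all 6 members. Anywhere in the 300 bases, on either strand, 35.0% of all promoters held it. The share of promoters with ATAAA at those positions is not given here. The longer TATAAA, which contains it, was present in CXCL8 and in 11.6% of all promoters. By global alignment of the windows, CXCL1 and CXCL2 were identical at 94.1% of the alignment columns, CXCL1 and CXCL3 at 90.0%, and CXCL5 and CXCL6 at 90.1%. CXCL8 matched each of the others at 42.9% to 54.3% of columns. These motifs were chosen after the sequences were seen, and a match of letters does not show that a factor was bound.

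The libraries held 9116032 to 23570026 counts on genes. Levels are given as counts per 1000000 counts (CPM), with library sizes scaled by edgeR's TMM method. In 11 libraries, 6 control and 5 IL-1β, of which 8 came from after withdrawal, 11.8% to 24.6% of the counts lay on mitochondrial genes, against 5.61% to 7.75% in the other 25. Results are also given without these 11, called mitochondria-rich below. Of the epithelial markers, KRT8, KRT18 and CDH1 were at 27.4 CPM or more in every library, while EPCAM was at 0.232 to 1.62 CPM and KRT19 reached 4 counts at most. The summed epithelial list was at 2897 to 7615 CPM in control and 898 to 5136 CPM in IL-1β libraries, and its part in the results below was not tested. Of the 5 leukocyte markers, CD14 (1.67 to 16.3 CPM) and ITGAM (3.44 to 14.6 CPM) were detected in every library. The other markers, PTPRC, CD3E and MS4A1, reached 3 counts at most in any library. The leukocyte list summed to 9.12 to 19.6 CPM in control and 6.73 to 30.0 CPM in IL-1β libraries. The 5 fibroblast markers summed to 4.19 CPM at most, and the 2 endothelial markers matched, of 3, to 0.347 CPM at most. In bulk RNA, fewer cells that express a gene and less of its RNA per cell cannot be told apart.

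During exposure, all 5 members with enough counts to be tested rose at all 3 time points, by 5.49-fold for CXCL5 at day 21 up to 137-fold for CXCL8 at day 6. CXCL6 had too few counts in every library and was not tested. A gene was called changed at an adjusted p under 0.05 (edgeR's quasi-likelihood test, Benjamini-Hochberg adjustment over 19180 genes) with a fold change over 2. By this rule 1.52% of all tested genes were called higher and 1.25% lower at day 6, 1.94% higher and 2.3% lower at day 15, and 2.19% higher and 2.06% lower at day 21. The median log2 fold change of the 19180 genes was within 0.03 of 0 at each time point. All 15 calls were also made without the mitochondria-rich libraries and without any one replicate number.

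**Figure D1:**
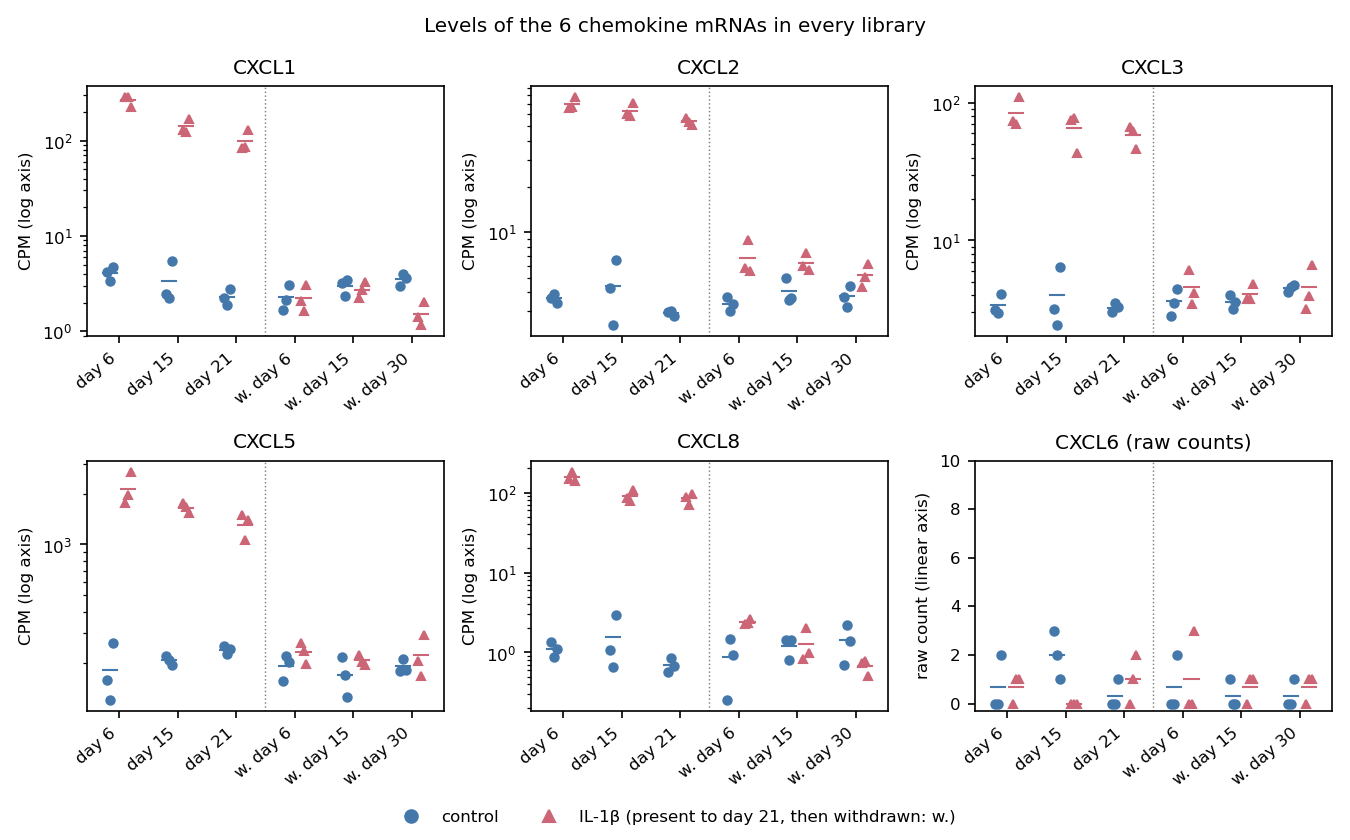
Each point is 1 library, with control cells as circles, IL-1β cells as triangles and a bar at the mean of the 3 libraries. The first 5 panels plot CPM on log axes and the last plots raw counts of CXCL6 on a linear axis, with time points after withdrawal marked w. to the right of the dotted line. With IL-1β present, CXCL1, CXCL2, CXCL3, CXCL5 and CXCL8 lie above every control library, and CXCL6 stays at 0 to 3 counts. How many of all tested genes lie above every control library is not given here.

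CXCL8, also known as interleukin-8, is a ligand of both CXCR1 and CXCR2 and had the largest fold change. In the 18 control libraries it was at 0.258 CPM at the lowest, 1.00 CPM at the median and 2.92 CPM at the highest, from 2 to 59 counts a library. With IL-1β it stood at 149, 180 and 140 CPM at day 6, at 86.5, 78.7 and 107 CPM at day 15, and at 88.6, 69.1 and 95.6 CPM at day 21. The lowest exposed library was thus far above the highest control library. The log2 fold change was 7.10 (SE 0.45, adjusted p = 1.1e-11, edgeR) at day 6, 5.85 (SE 0.42) at day 15 and 6.91 (SE 0.45) at day 21.

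CXCL1, a CXCR2 ligand first described as growth-regulated oncogene alpha, had the next largest fold change. It was at 1.67, 3.02 and 5.43 CPM (lowest, median and highest) in the 18 control libraries. In exposed cells it reached 284, 283 and 227 CPM at day 6, 130, 123 and 169 CPM at day 15, and 84.4, 85.1 and 129 CPM at day 21. Exposed and control libraries did not overlap, and the 3 day 6 libraries were above all later ones. The log2 fold changes were 6.00 (SE 0.32, adjusted p = 5.4e-13, edgeR) at day 6, 5.37 (SE 0.31) at day 15 and 5.43 (SE 0.32) at day 21.

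CXCL2 and CXCL3 are the closest relatives of CXCL1 and act on the same receptor. CXCL2 was at 2.44, 3.61 and 6.52 CPM (lowest, median and highest) in control cells. It stood at 65.9, 66.6 and 77.7 CPM at day 6 of IL-1β, at 60.2, 58.3 and 71.0 CPM at day 15, and at 57.1, 53.6 and 50.7 CPM at day 21. Its log2 fold change lay between 3.84 (SE 0.24) at day 15 and 4.26 (SE 0.25, adjusted p = 1.7e-12, edgeR) at day 6. The exposed libraries of CXCL2 spread little within a time point, with SDs of 3.19 to 6.86 CPM.

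CXCL3 was at 2.44, 3.52 and 6.37 CPM (lowest, median and highest) in control cells. Exposed libraries were at 73.6, 70.3 and 110 CPM at day 6, at 75.2, 77.8 and 43.1 CPM at day 15, and at 66.9, 62.4 and 46.2 CPM at day 21. The lowest of these was again above every control library, and the lowest value at day 15 came from a mitochondria-rich library. The log2 fold change was 4.63 (SE 0.33, adjusted p = 8.8e-11, edgeR) at day 6, 4.02 (SE 0.32) at day 15 and 4.16 (SE 0.32) at day 21. Some reads of CXCL1, CXCL2 and CXCL3 cannot be told apart: 5.33%, 10.1% and 3.02% of the 50-base windows of their longest transcripts also occur in another of the 3, while CXCL5, CXCL6 and CXCL8 share none.

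CXCL5, another CXCR2 ligand that is made largely by epithelial cells, was abundant without IL-1β and had the smallest fold change. Control libraries held 121, 205 and 262 CPM (lowest, median and highest). Exposed libraries held 1760.1, 1952 and 2679 CPM at day 6, 1748, 1673 and 1539 CPM at day 15, and 1485, 1059 and 1391 CPM at day 21. The lowest exposed library, at day 21, was again far above the highest control library, which came from day 6. The log2 fold change was 3.56 (SE 0.25, adjusted p = 7.9e-11, edgeR) at day 6, 3.00 (SE 0.24) at day 15 and 2.46 (SE 0.24, adjusted p = 3.7e-08, edgeR) at day 21. Of the exonic bases of CXCL5, 17.3% lie opposite an annotated antisense gene (ENSG00000287037) that the count tables do not list. The strand setting of the counting is not given in the sources used here.

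CXCL6, a ligand of CXCR1 and CXCR2 and the nearest relative of CXCL5, was barely detected. It had 0 counts in 19 libraries, 3 at most in the other 17 and 25 counts in all, of which 13 came from control and 12 from IL-1β libraries. Every group was thus at the floor of 3 counts a library, which corresponds to 0.119 CPM in the deepest and 0.386 CPM in the shallowest library, and no fold change was computed. The pair CXCL5 and CXCL6, whose windows before the start were 90.1% identical, therefore held the highest and the lowest level among the 6 genes. Of the exonic bases of CXCL6, 4.61% overlap the pseudogene PPBPP1 on the same strand, which had 0 counts in all libraries.

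**Figure D2:**
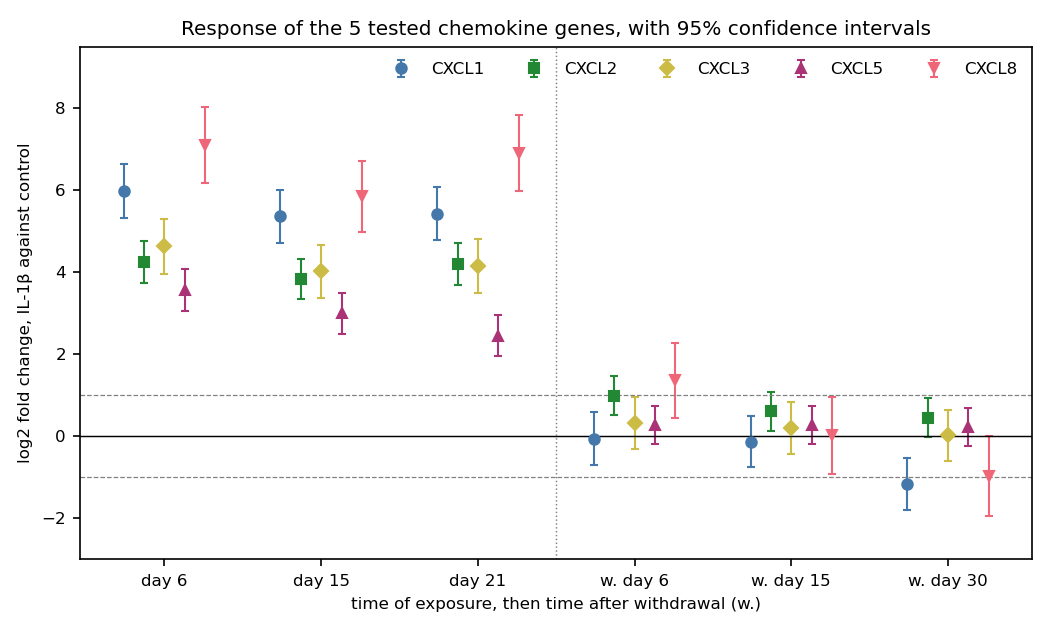
Points are log2 fold changes of IL-1β against control at each of 6 time points for the 5 tested genes, with bars for 95% confidence intervals. Dashed lines mark a fold change of 2 in either direction and the dotted line separates exposure from withdrawal. At day 6 the values run from 3.56 for CXCL5 to 7.10 for CXCL8, and at 30 days after withdrawal from −1.16 for CXCL1 to 0.45 for CXCL2.

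The order of the fold changes ran against the order of the control levels at its ends. Both orders use the control values, since a fold change is taken against them, so they are not independent. Per kb of exon, the median over the 18 control libraries was 84.2 CPM for CXCL5, 2.58 for CXCL2, 2.22 for CXCL1, 1.58 for CXCL3 and 0.388 for CXCL8. CXCL5 was lowest in fold change and CXCL8 highest at all 3 times of exposure. At day 6 the 95% confidence interval of the log2 fold change was 3.05 to 4.08 for CXCL5, 3.75 to 4.77 for CXCL2, 3.96 to 5.31 for CXCL3, 5.34 to 6.66 for CXCL1 and 6.17 to 8.03 for CXCL8. Intervals of neighbours in this order overlapped except those of CXCL3 and CXCL1, and differences between genes were not tested. At day 6 of IL-1β the levels per kb were 875 ± 199 CPM for CXCL5, 194 ± 24.0 for CXCL1, 60.4 ± 8.25 for CXCL8, 50.1 ± 4.71 for CXCL2 and 38.1 ± 9.83 for CXCL3 (SD, n = 3). CXCL8, the fifth in control cells, was thus the third at day 6, although CXCL8 and CXCL2, and CXCL2 and CXCL3, differed by less than the sum of their SDs. At the later times CXCL8 was the fourth, at 35.1 CPM per kb against 45.2 for CXCL2 at day 15, and at 32.6 against 38.5 at day 21. The place of CXCL3 depends on length, since its annotated exons together cover its whole gene, 2219 bases. In plain CPM at day 6 of IL-1β, CXCL3 was at 84.5 ± 21.8 and CXCL2 at 70.1 ± 6.59 (SD, n = 3). With the longest transcript as length, their shares of the 6 genes were 3.95% and 4.89%.

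The 6 mRNAs together summed to 81.7 ± 30.5 CPM per kb (SD, n = 3) in control cells and to 1218 ± 185 in exposed cells at day 6. At day 21 the sum was 104 ± 5.16 in control and 709 ± 103 in exposed cells. CXCL5 made up most of this sum in every library. Its share was 86.2% to 95.1% in the 18 control libraries and 67.6% to 78.5% in the 9 exposed libraries, and the ranges did not overlap. The share of CXCL1 was 1.40% to 4.39% in control and 7.98% to 19.5% in exposed libraries, and that of CXCL8 0.144% to 1.22% and 3.44% to 6.02%. After withdrawal CXCL5 was back at 89.6% to 93.5% of the sum.

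**Figure D3:**
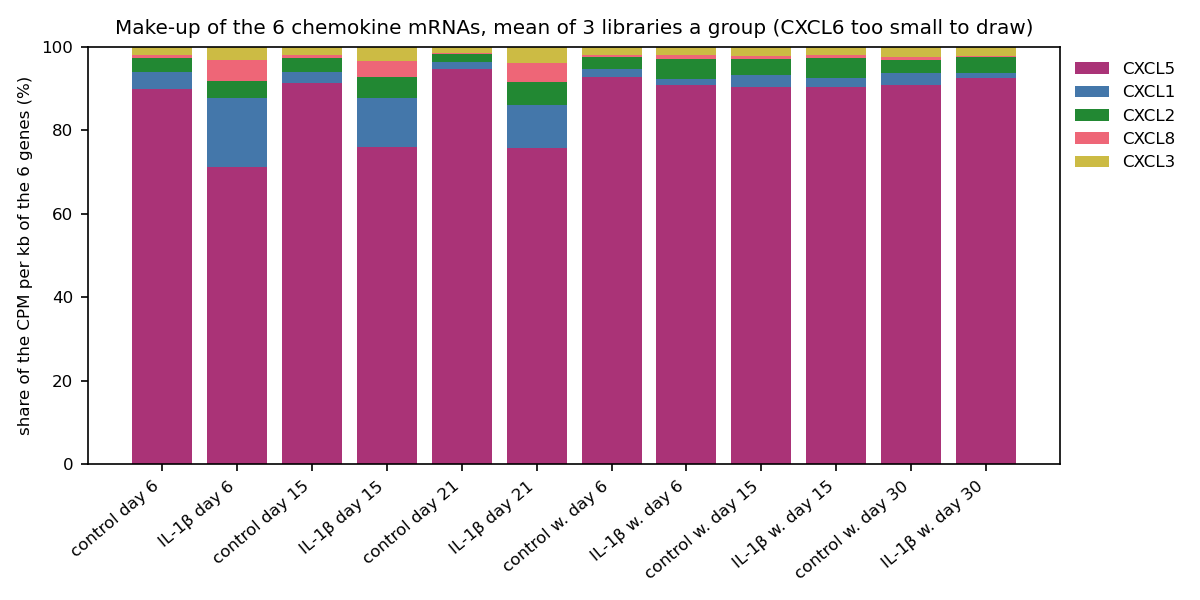
Stacked bars give the mean share of each gene in the summed CPM per kb of the 6 genes, for the 12 groups (mean of 3 libraries, in percent). CXCL6, at or under 0.0582% on average in every group, is not visible. The CXCL5 part is at 71.3% to 76.1% in the 3 groups with IL-1β present and at 90.0% or more in all others.

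Whether the response changed during exposure was tested as the difference between the log2 fold change at day 21 and at day 6. None of the 5 members was called, against 0.0104% of all tested genes in either direction by edgeR, which were 2 genes (10 by DESeq2's Wald test, 429 at an unadjusted p under 0.05). CXCL5 was the only member of the 5 at an unadjusted p under 0.05. Its log2 fold change was 1.10 lower at day 21 (difference −1.10, 95% confidence interval −1.77 to −0.44), with an adjusted p of 0.9999 by edgeR and 0.448 by DESeq2. The other differences were −0.57 (−1.37 to 0.23) for CXCL1, −0.47 (−1.32 to 0.38) for CXCL3, −0.19 (−1.41 to 1.04) for CXCL8 and −0.06 (−0.72 to 0.61) for CXCL2.

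After withdrawal CXCL1, CXCL3 and CXCL5 were near the control level by the first collection. CXCL2 and CXCL8 were estimated above it, at 1.99-fold (95% confidence interval 1.42 to 2.79) and 2.57-fold (1.37 to 4.82). At 6 days after withdrawal, CXCL1 was at 2.07, 1.62 and 3.07 CPM against 1.67, 2.16 and 3.09 CPM in control cells, and CXCL3 was at 6.05, 3.47 and 4.17 against 2.83, 3.54 and 4.46 CPM. CXCL5 was at 260, 235 and 198 CPM against 155, 218 and 202 CPM. The log2 fold changes of these 3 genes were −0.06 (95% confidence interval −0.70 to 0.58), 0.33 (−0.30 to 0.96) and 0.27 (−0.20 to 0.73). CXCL2 was at 5.78, 8.92 and 5.55 CPM against 3.73, 3.02 and 3.35 CPM. CXCL8 was at 2.29, 2.32 and 2.66 CPM against 0.258, 1.47 and 0.944 CPM. These values rest on 20 to 46 counts a library against 2 to 22. The highest CXCL2 library was mitochondria-rich, as were 2 of the 3 controls.

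At this time none of the 5 members was called higher, against 1.08% of all tested genes called higher and 0.725% lower. Of the 5, 2 were at an unadjusted p under 0.05, as were 1840 of the 19180 tested genes. DESeq2's Wald test called none of the 5, against 387 tested genes called in either direction. For CXCL2 the log2 fold change was 0.99 (SE 0.24), just under the limit of 1, with an adjusted p of 0.0154 (edgeR). By the adjusted p alone CXCL2 was higher, as were 1.62% of all tested genes. This p ranged from 0.00446 to 0.415 over the alternatives. Leaving out the mitochondria-rich libraries leaves 1 control library at this time, and the CXCL2 value was then 0.78. For CXCL8 the log2 fold change was 1.36 (SE 0.44, 95% confidence interval 0.45 to 2.27), with an adjusted p of 0.122 (edgeR).

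By 15 days after withdrawal none of the 5 was called, against 0.594% of tested genes called higher and 0.36% lower (edgeR). DESeq2's Wald test also called none of the 5, against 215 tested genes called in either direction. CXCL2 had the largest log2 fold change of the 5, 0.61 (95% confidence interval 0.13 to 1.09, adjusted p = 0.322, edgeR), and was the only member at an unadjusted p under 0.05, as were 1679 of the 19180 tested genes. Its libraries were at 5.96, 7.26 and 5.63 CPM, against 4.99, 3.57 and 3.65 CPM in their controls. Leaving out the mitochondria-rich libraries leaves 1 control library at this time, and the CXCL2 value was then 0.22. Without replicate 2 it was 0.38. The other 4 lay between −0.13 for CXCL1 and 0.28 for CXCL5. Values of CXCL5 and CXCL8 turned negative, at −0.05 and −0.63, without the mitochondria-rich libraries, again against 1 control library.

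At the last collection, 30 days after withdrawal, 0 of the 5 were called, against 0.433% of tested genes called higher and 0.464% lower (edgeR). DESeq2's Wald test called 1, CXCL1, among 212 tested genes that it called in either direction. CXCL1 was also the only member of the 5 at an unadjusted p under 0.05 by edgeR, as were 1602 of the 19180 tested genes. CXCL1 was at 1.42, 1.17 and 2.01 CPM against 2.95, 3.98 and 3.63 CPM in control cells of the same collection. Over the 18 control libraries of all times CXCL1 reached down to 1.67 CPM. The libraries of cells once exposed were therefore not all below those of cells that never were. The log2 fold change was −1.16 (SE 0.31), and its adjusted p was 0.0606 by edgeR, 0.0194 by DESeq2's Wald test, 0.0391 with high mitochondrial share as a covariate, 0.00387 without replicate 3 and 0.00376 under a replicate block. At this time the 3 pairs of libraries with the same number had correlations of deviations of 0.371, 0.464 and 0.310. All 3 pairs were over 0.1 at this time and at day 21, but not at the other times. Both replicate 2 libraries of this time were mitochondria-rich and the others were not, and the part of this in the correlations was not tested. Over all alternatives the adjusted p of CXCL1 ranged up to 0.890 (edgeR without replicate 2). Without the mitochondria-rich libraries its log2 fold change was −0.90 (adjusted p = 0.460, edgeR). CXCL8 was at 0.746, 0.779 and 0.514 CPM against 0.698, 2.18 and 1.38 CPM, with a log2 fold change of −0.97 (95% confidence interval −1.95 to 0.01) from 11 to 28 counts a library. CXCL2, CXCL3 and CXCL5 were at 0.45, 0.02 and 0.22, with intervals that span 0.

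The loss of the response was tested as the difference between the log2 fold change after withdrawal and that at day 21, 2 comparisons that share the day 21 libraries. From day 21 to 6 days after withdrawal all 5 members were called lower, against 0.0886% of all tested genes. The differences were −5.55 (SE 0.63) for CXCL8, −5.48 (SE 0.43) for CXCL1, −3.84 (SE 0.43) for CXCL3, −3.21 (SE 0.33) for CXCL2 and −2.19 (SE 0.33, adjusted p = 0.000743, edgeR) for CXCL5. From day 21 to 30 days after withdrawal all 5 were again called lower, against 0.297% of all tested genes, with differences from −7.88 (SE 0.64) for CXCL8 to −2.24 (SE 0.33) for CXCL5. Without replicate 1 the first comparison lost CXCL2 (adjusted p = 0.109, edgeR) and CXCL5 (adjusted p = 0.353, edgeR), and the second lost CXCL5 (adjusted p = 0.200, edgeR). The first also lost CXCL5 without replicate 2 (adjusted p = 0.0793, edgeR). All 5 calls of the second comparison were also made without the mitochondria-rich libraries. The first comparison then rests on 1 control library at 6 days.

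Untreated cells were compared between their first and last collection only, and the times between were not tested. Between the first and the last collection of control cells the log2 differences were 0.42 for CXCL3, 0.22 for CXCL8, 0.08 for CXCL5, 0.06 for CXCL2 and −0.25 for CXCL1, and each 95% confidence interval spanned 0. None of the 5 was called or at an unadjusted p under 0.05, against 0.0104% of tested genes called in either direction by edgeR, which were 2 genes (1 by DESeq2, 372 at an unadjusted p under 0.05).

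Genes around the cluster were examined because position was not used to choose the members. Within 1 Mb of the 359 kb span, 41 other genes have their lower coordinate, and 12 of them had enough counts to be tested. Between the first and the last member lie 10 of these genes, among them the platelet chemokine genes PF4, PF4V1 and PPBP, which reached 1, 1 and 3 counts at most in any library. The single gene tested within the span, the pseudogene HNRNPA1P55, had a log2 fold change of −0.39 at day 21. Of the 12, 1 gene was called higher and 1 lower at days 6, 15 and 21. Of all tested genes, 1.52%, 1.94% and 2.19% were called higher at these times and 1.25%, 2.3% and 2.06% lower. The median log2 fold change of the 12 was 0.001 at day 21, against −0.008 over all tested genes. The gene called higher was EREG, which encodes the EGF receptor ligand epiregulin and starts 625 kb from the CXCL8 start, at 447 ± 142 CPM against 140 ± 27.8 in control cells (SD, n = 3, day 21). The gene called lower was RASSF6, a Ras association domain family member on the minus strand that lies at −169 to −119.9 kb on the other side of the CXCL8 start, at 0.629 ± 0.422 against 2.13 ± 0.150 CPM, and it was also called lower 15 and 30 days after withdrawal. MTHFD2L, the next gene beyond CXCL2, had a log2 fold change of 0.31.

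**Figure D4:**
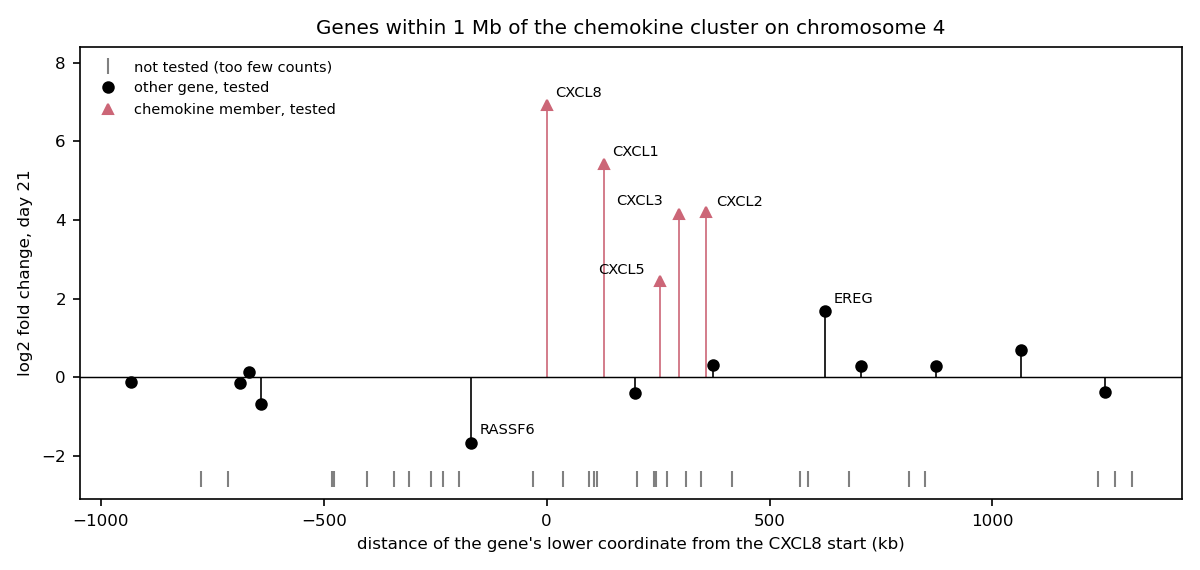
The horizontal axis is the distance of each gene's lower coordinate from the CXCL8 start in kb, whatever its strand, and the vertical axis is the log2 fold change of IL-1β against control at day 21. Triangles are the 5 tested chemokine genes, circles the 12 other tested genes and grey ticks the genes with too few counts. The triangles lie between 2.46 and 6.91, while the circles lie between −1.66 for RASSF6 and 1.68 for EREG.

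No other CXC ligand was called higher at any time point. Of the 11 in the list, 9 had too few counts to be tested, including the interferon-induced T-cell attractants CXCL9, CXCL10 and CXCL11 with 2 counts at most in any library, and CXCL12 with 0 counts in all 36. Of the 2 tested, 1 was called lower at days 15 and 21, when 2.3% and 2.06% of all tested genes were. This was CXCL16, a membrane-anchored ligand of CXCR6, at 3.72 ± 0.471 CPM against 12.2 ± 1.82 in control cells at day 21 (SD, n = 3), a log2 fold change of −1.71 (SE 0.33, adjusted p = 0.000865, edgeR). CXCL14 was at 0.49 and not called. The 8 receptors of CXC ligands in the list could not be tested. CXCR1 had 0 counts in all 36 libraries, which is under the same floor as for CXCL6, and CXCR2, the receptor that the 6 ligands share, reached 6 counts at most. The most counted receptor was the scavenger receptor ACKR3, with 16 counts at most.

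All 20 genes of a list of IL-1β signalling and chemokine mRNA control were tested. Of these, 7 were called higher at day 6, 6 at day 15 and 6 at day 21. The shares of all tested genes called higher were 1.52%, 1.94% and 2.19%. None of the list was called lower, against 1.25%, 2.3% and 2.06% of all tested genes. The median log2 fold change of the list was 0.81, 0.42 and 0.55 at these times, against −0.02, −0.02 and −0.01 over all tested genes. Among those that rose are known feedback inhibitors of the pathway. At day 21, ZC3H12A, the RNase named above, was at 113 ± 33.0 against 10.7 ± 1.64 CPM (log2 fold change 3.41), and TNFAIP3, the ubiquitin-editing NF-κB inhibitor A20, at 78.7 ± 13.5 against 8.54 ± 0.817 CPM (log2 fold change 3.21). IRAK2, a kinase-like adaptor of the receptor complex, had a log2 fold change of 2.03, NFKBIA, which encodes IκBα, 1.89, NFKBIZ, an atypical IκB protein that acts in the nucleus, 1.84, and NFKB2, the p100 precursor, 1.20. The gene called at day 6 but not at day 21 was RELB, an NF-κB subunit, at 2.08 (adjusted p = 0.0111, edgeR) and 1.13 (adjusted p = 0.248, edgeR). IL1R1, MYD88, TRAF6 and RELA, which carry the signal inward, were not called at day 21, with values of −0.43, 0.06, −0.10 and 0.29. NFKB1, of the same list, was higher but under the log2 limit of 1, at 0.86, 0.73 and 0.68 at days 6, 15 and 21. Its adjusted p was 0.000151 (edgeR) at day 21.

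After withdrawal this list lost most of its calls, with 1 called higher at 6 days, 0 at 15 days and 1 at 30 days. Of all tested genes, 1.08%, 0.594% and 0.433% were called higher at these times. The median log2 fold change of the list was 0.16, 0.23 and 0.31. Each call was TNFAIP3, at log2 fold changes of 1.27 and 1.09. At the 15 days without a call, edgeR gave TNFAIP3 an adjusted p of 0.0202 with a log2 fold change of 0.92, under the limit of 1. NFKBIA was likewise under this limit at 6 days (0.75, adjusted p = 0.0274, edgeR) and 30 days (0.82, adjusted p = 0.0241, edgeR). NFKB2 was at 1.05 at 30 days, with an adjusted p of 0.0526 (edgeR). ZC3H12A was at −0.03, 0.18 and 0.15 after 6, 15 and 30 days. ZFP36, which binds AU-rich elements, and ELAVL1, which also does, were not called at any time point.

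**Figure D5:**
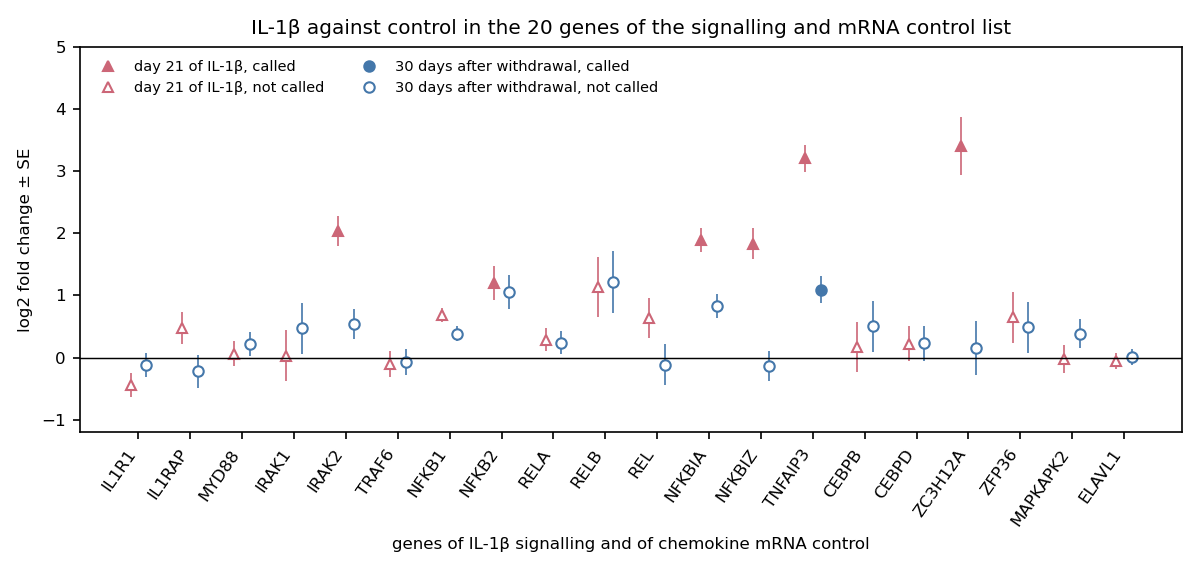
Log2 fold changes of IL-1β against control with their SE are plotted for the 20 genes of the signalling and mRNA control list, at day 21 (triangles) and 30 days after withdrawal (circles). Filled symbols are called genes, of which 6 are at day 21, led by ZC3H12A at 3.41, and 1 is at 30 days, TNFAIP3 at 1.09.

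The pentamer ATTTA, the core of AU-rich elements, was counted in the longest annotated transcript of each gene. CXCL2 held 8.97 per kb, CXCL8 6.94, CXCL1 5.11, CXCL5 4.52, CXCL6 3.90 and CXCL3 1.83. Among 13314 tested protein-coding genes the median was 1.12 per kb and the 90th percentile 2.92. By its longest transcript CXCL3 was thus the only member of the 6 below the 90th percentile. That transcript has 1641 bases, while all annotated exons of CXCL3 together cover 2219. Other transcripts were not counted, and which of them the cells made was not tested.

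The 5 tested members followed one another closely over the 36 libraries. Pearson's r of log2 CPM between pairs of members ranged from 0.952 (CXCL1 and CXCL2) to 0.977 (CXCL1 and CXCL8). This describes likeness and carries no p, since the 9 libraries with IL-1β present stand apart from the other 27 and set most of each value. Ranked among all tested genes, the 3 most like each member were other members except in 2 places. C6orf58 was the third for CXCL1 (r = 0.961), and MIR3142HG, a microRNA host transcript, came in the same place for CXCL2 (r = 0.969).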

How the data were processed

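The authors made libraries with the KAPA stranded mRNA kit, read from 1 end on a HiSeq instrument. Per the labels, bcl2fastq 2.17, TopHat2 2.0.14, Bowtie2 2.2.5 and HTSeq 0.6.1 were used with GRCh37. The deposited values are raw counts per Ensembl gene and library, not normalized. The strand setting and the annotation release are not given in the sources used here. Each table ends in 5 summary lines, left out of library sizes and tests: they took 8.48% to 18.6% (no gene) and 2.62% to 4.18% (ambiguous) of the reads counted.

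From these counts, 19180 genes kept by filterByExpr were fitted with edgeR 4.0.16 (R 4.3.3, limma 3.58.1), with TMM scaling, 12 groups as terms and 24 residual degrees of freedom. Benjamini-Hochberg adjustment covered these genes. A call needed both an adjusted p under 0.05 and a change of over 2-fold, the authors' limits. The floor was 3 counts in each library of a group and covers counting error only. DESeq2 1.42.0 served as an alternative. Python 3.11.15 with pandas 2.3.3, numpy 2.4.6 and matplotlib 3.10.9 was used for levels and figures. Positions come from GENCODE v44lift37 (55665 of 63677 identifiers matched). On simulated counts in which 200 of 19180 genes differed by 2 on the log2 scale, the fit recovered 149 (74.5%) at day 21 with 4 false calls, and 105 (52.5%) in the difference between 30 days after withdrawal and day 21 with 6.

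The members and the gene lists were chosen with earlier results of these data known. Named genes are the 6 members, the genes called at any time point in each list (6 at most) and the 3 genes most like each member. Other genes named (receptors, undetected ligands, neighbours and signalling genes that were not called) illustrate counts and were chosen after their values were seen. The alternatives were DESeq2's size factors, 2 other filters, DESeq2's Wald test, a separate fit of each time point, a replicate block, leaving out each replicate, leaving out or adjusting for the mitochondria-rich libraries (over 10% of counts), no fold limit, unscaled CPM and the longest transcript as length.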

Additional observations from a re-analysis of the deposited data

Results flagged for a closer look

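The response to IL-1β differed between day 21 of exposure and the times after withdrawal in all 5 tested members, by the test of the difference itself (edgeR, interaction of treatment and time). Between day 21 and 6 days after withdrawal the difference of the log2 fold changes was −5.48 for CXCL1, −3.21 for CXCL2, −3.84 for CXCL3, −2.19 for CXCL5 and −5.55 for CXCL8. Between day 21 and 30 days after withdrawal the differences were −6.59 for CXCL1, −3.76 for CXCL2, −4.14 for CXCL3, −2.24 for CXCL5 and −7.88 for CXCL8. Groups of 3 libraries were not examined for outlying samples.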

How the results depend on the processing

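All 5 members were called higher at days 6, 15 and 21 under every alternative but the filter of at least 10 counts in every library. That filter leaves out CXCL8 (2 counts in 1 control library and 8 in another) and called the other 4. At 6 days after withdrawal, 1 member (CXCL2) was called with DESeq2's size factors, with at least 10 counts in every library and by the adjusted p alone, and 0 to 1 without 1 replicate. From day 21 to 6 days after withdrawal 3 to 5 members were called without 1 replicate, and to 30 days 4 to 5. The 18 pairs of libraries with the same replicate number had correlations of deviations from −0.336 to 0.718 (mean 0.279), with 14 over 0.1, so the numbers were not taken to pair the libraries. With the replicate block the counts of members called stayed at 5, 5 and 5 during exposure and 0, 0 and 0 higher after withdrawal, but CXCL1 was called lower at 30 days (−1.18, adjusted p = 0.00376, edgeR). Shares of all tested genes called under the replicate block, DESeq2's size factors and the other filters are not given here.

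Of the log2 fold changes recomputed, 493 kept their direction and call, 16 changed sign, 7 were called only under the alternative and 4 were no longer called. Sign changes occurred only in values that were not called. Without 1 replicate the log2 fold change ranged from −0.28 to 0.038 for CXCL1 at 15 days after withdrawal, −0.063 to 0.59 for CXCL3 at 6 days, −0.32 to 0.16 for CXCL3 and −0.084 to 0.46 for CXCL5 at 30 days, and −0.67 to 0.38 for CXCL8 at 15 days (−0.013 with the replicate block). The difference of day 21 minus day 6 ranged from −0.14 to 0.058 for CXCL2 and −0.55 to 0.32 for CXCL8, and that of the last minus the first control from −0.10 to 0.20 for CXCL2, −0.22 to 0.50 for CXCL5 and −0.24 to 0.78 for CXCL8. Leaving out the mitochondria-rich libraries gave 13 residual degrees of freedom. It left 1 library in 2 control groups, those of 6 and 15 days after withdrawal, assumed to vary like the others. The values were then −0.046 for CXCL5 and −0.63 for CXCL8 at 15 days, and 0.073 for CXCL8 in day 21 minus day 6. In the controls they were −0.22 for CXCL5 and −0.24 for CXCL8. The cause was not tested. Shares per kb moved by over 1 SD with the longest transcript as length, for example CXCL5 at day 21 of IL-1β from 75.8% to 71.7%. Depth limits CXCL6, and CXCL8 outside exposure, to few counts.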
